A study of Homo sapiens with 8 samples.

Results

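The transcripts of ENAH, RALGPS2, OSBPL3, GIT2, NUMB, SLK, KIF21A, EXOC7, CD44 and CSF1 have been reported to be spliced under the control of the epithelial splicing factors ESRP1 and ESRP2. The levels of these 10 genes were followed after both factors were targeted for depletion. The series holds 4 arrays of PNT2 cells, an immortalized human prostatic epithelial line, transfected with short interfering RNA (siRNA) that targets ESRP1 together with ESRP2 (called siESRP), and 4 arrays of the same line given siRNA against GFP (siGFP), used as the control. All cells were grown in RPMI1640 with serum, and each sample was hybridized to its own Affymetrix human exon array. A gene was taken from a row of the deposited table only where the platform annotation names that gene alone, and each of the 10 genes had 1 such row among 18495 rows. The genes were listed by name with earlier results of these arrays known, and part of the literature behind the list comes from PNT2 cells.

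ESRP1 and ESRP2 are RNA-binding proteins restricted to epithelia. They bind GU-rich stretches in and around alternative exons and thereby include or skip them, so that epithelial cells make other protein isoforms than mesenchymal cells from the same genes. Splicing control of this kind need not alter how much transcript a gene yields. The deposited values are single gene-level intensities, so exon inclusion was not measured, and whether a change in exon use itself moved a gene-level value was not tested.

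The row of ESRP1 and the row that holds ESRP2 were both lower in siESRP cells. Intensity of the ESRP1 row averaged 582 ± 66.9 in siESRP and 2439 ± 169 in siGFP cells (SD, n = 4 each), a reduction of 76.2% (limma adjusted p = 6.58e-05). The row annotated to ESRP2 together with NFATC3 averaged 148 ± 27.4 in siESRP and 531 ± 33.4 in siGFP cells, a reduction of 72.1% (limma adjusted p = 0.000336). A row of NFATC3 alone averaged 596 ± 33.8 in siESRP and 635 ± 44.3 in siGFP cells (limma adjusted p = 0.403). ESRP2 was not measured apart from NFATC3 in the shared row. Median deposited intensity lay between 247 and 269 for siESRP and between 233 and 286 for siGFP arrays, and values were quantile normalized before any comparison. Of 8 epithelial markers, CDH1, KRT18 and KRT19 rose (limma adjusted p under 0.05) and 0 fell, also at an unadjusted limma p under 0.05. EPCAM averaged 3120.0 in siESRP and 3386 in siGFP cells. The summed normalized intensity of the epithelial markers ran from 28367 to 29108 in siESRP and from 25063 to 26009.9 in siGFP arrays. For 9 fibroblast and mesenchymal markers the sum ran from 2009.5 to 2070.4 in siESRP and from 2118 to 2203 in siGFP arrays. This sum holds large changes in opposite directions, as 2 rose (FAP and VIM) while 2 fell (CDH2 and COL1A1). FAP averaged 821 in siESRP and 200 in siGFP cells, a 4.11-fold increase (limma adjusted p = 9.15e-05). CDH2 averaged 631 in siESRP and 1295 in siGFP cells, a 2.06-fold decrease (limma adjusted p = 0.000265). Sums of 6 leukocyte markers (877 to 1077 in siESRP, 706 to 809 in siGFP) came mostly from CD68. CD68 rose to 747 in siESRP, against 551 in siGFP cells (limma adjusted p = 0.0141). PTPRC, the defining leukocyte marker, averaged 12.8 in siESRP and 10.7 in siGFP cells. Sums of 6 endothelial markers ran from 427 to 509 in siESRP and from 351 to 411 in siGFP arrays, those of 4 neuroendocrine markers from 1280.4 to 1524 in siESRP and from 1233 to 1352 in siGFP arrays, and those of 4 luminal prostate markers from 171 to 182 in siESRP and from 153 to 198 in siGFP arrays. The endothelial sum came mostly from CDH5, which rose to 324 in siESRP, against 241 in siGFP cells (limma adjusted p = 0.0333). TEK fell to 22.1 in siESRP, against 30.25 in siGFP cells (limma adjusted p = 0.0118). Of the 6 endothelial markers, 4 had both means under 50. The neuroendocrine sum came mostly from ENO2 (1194 in siESRP and 990.5 in siGFP cells), and SCG2, a granule protein, fell to 69.6 in siESRP, against 214 in siGFP cells (limma adjusted p = 0.00830). Luminal prostate markers were close to background, with KLK3 at 65.2 in siESRP and 61.7 in siGFP cells and HOXB13 at -0.28 in siESRP and 15.8 in siGFP cells. The part of these shifts in the results on the 10 genes was not tested. In RNA from whole cultures, fewer cells of a type and less RNA per cell cannot be told apart.

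Transcript levels of the 10 genes moved little and in both directions. RALGPS2, OSBPL3 and GIT2 rose, ENAH fell, and the other 6 did not pass (limma, Benjamini-Hochberg adjusted p under 0.05 over all rows). Of all rows, 20.2% passed this test, 10.9% as higher in siESRP and 9.31% as lower. Each of the 10 genes had a group mean of 100 or more and no value at or below 0, and of the 12077 rows that meet these conditions 28.4% passed. None of the 10 genes changed by 1.5-fold or more, a size that 7.08% of all rows reached with an adjusted p under 0.05. The median log2 difference, siESRP minus siGFP on the log2(value + 1) scale, was 0.15 over the 10 genes and -0.02 over all rows. The median size of the difference regardless of sign was 0.20 for the 10 genes and 0.21 for all rows. Differences of the 10 genes ran from -0.41 to 0.49, with 7 above 0 and 3 below.

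**Figure D1:**
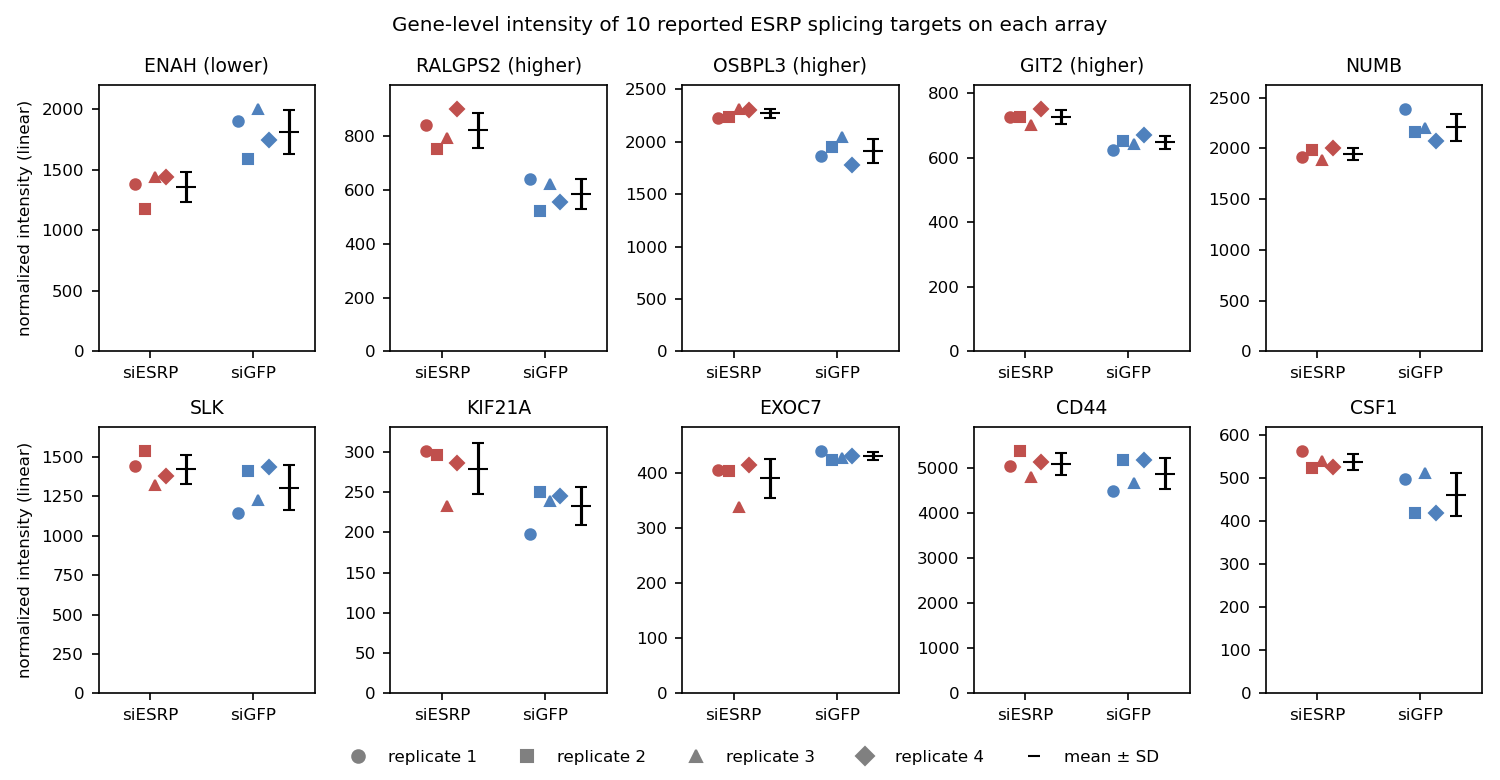
Quantile-normalized gene-level intensity (linear axis from 0) of each of the 10 genes on every array, siESRP left of siGFP, with the marker shape giving the replicate number and the black bar the mean ± SD of 4 arrays. The siESRP values of ENAH, at most 1439, lie below all siGFP values, and those of RALGPS2, at least 751, lie above them, while the groups of SLK, KIF21A and CD44 overlap.

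ENAH encodes Mena, an actin regulator of the Ena/VASP family that promotes filament elongation at the leading edge and at cell contacts and is known for a short exon included in epithelia. Its normalized intensities were 1382, 1175, 1438 and 1439 in siESRP cells and 1904, 1589, 2002 and 1745 in siGFP cells. Every siESRP value lay below every siGFP value, and siESRP replicate 2 and siGFP replicate 2 were the lowest of their groups. The mean was 1358 ± 125 in siESRP and 1809.98 ± 182 in siGFP cells (SD, n = 4 each), a 1.33-fold decrease (log2 difference -0.41 ± 0.10 SE, 95% interval -0.64 to -0.18, limma adjusted p = 0.0252). The call was close to its limit: the adjusted p was 0.0596 without siESRP replicate 1, 0.0662, 0.0600 and 0.0541 without siGFP replicate 1, 3 or 4, and 0.0506 with median scaling, with the gene lower in each.

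RALGPS2 encodes an exchange factor that activates the small GTPase Ral, which in turn recruits the exocyst for secretion. It had normalized intensities of 842, 751, 791 and 901 in siESRP cells, against 642, 522, 622.5 and 554 in siGFP cells. All siESRP arrays were above all siGFP arrays, with a gap between the lowest siESRP and the highest siGFP value. RALGPS2 averaged 821 ± 64.7 in siESRP and 585 ± 56.4 in siGFP cells (SD, n = 4 each), a 1.40-fold increase (log2 difference 0.49 ± 0.09 SE, 95% interval 0.28 to 0.70, limma adjusted p = 0.00890). This was the largest difference of the 10 genes. Its size ranked 3186th among all rows, and 82.8% of rows had a smaller difference. The call held without any 1 array and under median scaling.

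The start-site regions of ENAH and RALGPS2 are shown because these genes had the largest decrease and the largest increase among the 10. They run from 250 bases before to 50 bases after the annotated start (RefSeq, GRCh38.p14), at chr1:225653074-225653373 on the minus strand for ENAH and at chr1:178724994-178725293 on the plus strand for RALGPS2, and are written 5′ to 3′ along the gene with every GC box in capitals.
ENAH: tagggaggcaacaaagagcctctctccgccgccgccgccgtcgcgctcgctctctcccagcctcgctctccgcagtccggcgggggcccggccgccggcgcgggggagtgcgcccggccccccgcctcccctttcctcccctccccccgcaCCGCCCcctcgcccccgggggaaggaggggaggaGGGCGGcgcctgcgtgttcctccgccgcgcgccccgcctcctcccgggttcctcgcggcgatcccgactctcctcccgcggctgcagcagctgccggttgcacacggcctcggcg
RALGPS2: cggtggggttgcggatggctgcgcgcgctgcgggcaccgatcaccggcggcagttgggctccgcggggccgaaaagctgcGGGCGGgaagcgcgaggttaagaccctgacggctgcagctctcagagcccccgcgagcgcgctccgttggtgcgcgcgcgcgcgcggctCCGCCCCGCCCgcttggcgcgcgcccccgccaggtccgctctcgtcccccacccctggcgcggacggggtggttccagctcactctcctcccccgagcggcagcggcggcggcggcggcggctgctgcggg
The GC box was searched as GGGCGG on both strands, where it reads CCGCCC on the other strand. Both windows are rich in G and C (79.0% for ENAH, 78.3% for RALGPS2), with 2 GC boxes for ENAH and 3 for RALGPS2, 2 of which overlap each other. Of 35116 promoter windows of this length in the table, 45.0% hold a GC box. The element CCAAT, which 34.6% of all windows hold on one strand or the other, was found in neither. The element TATAAA, held by 11.5% of windows, was likewise found in neither. The same was true of the E2-box CAGGTG, which 20.6% of windows hold. Promoter windows were listed for 9 of the 10 genes (2 windows for OSBPL3 and EXOC7), and 8 of these 9 had a GC box in a window, so the element was shared by genes that rose, fell or did not pass.

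OSBPL3 encodes an oxysterol-binding protein relative that works at contacts between endoplasmic reticulum and plasma membrane and affects cell adhesion through the GTPase R-Ras. Its intensities were 2224, 2238, 2315 and 2306 in siESRP cells and 1869, 1952, 2043 and 1779.9 in siGFP cells. The siESRP arrays lay within a narrow band above all siGFP arrays. The mean was 2271 ± 46.6 in siESRP and 1911 ± 113 in siGFP cells (SD, n = 4 each), a 1.19-fold increase (log2 difference 0.25 ± 0.05 SE, limma adjusted p = 0.0145). With median scaling the adjusted p was 0.129.

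GIT2 encodes a GTPase-activating protein for Arf proteins that acts as a scaffold in focal adhesion turnover. Intensities were 725, 726, 700.5 and 752 in siESRP cells, against 624.5, 653, 644 and 672 in siGFP cells. The groups did not overlap, but the difference was small: the mean was 726 ± 21.2 in siESRP and 649 ± 19.8 in siGFP cells (SD, n = 4 each), a 1.12-fold increase (log2 difference 0.16 ± 0.04 SE, limma adjusted p = 0.0320). Leaving out 1 array at a time ended the call for 6 of the 8 arrays, with adjusted p of 0.0811, 0.0711 and 0.0823 without siESRP replicate 1, 2 or 4 and 0.0697, 0.0661 and 0.0752 without siGFP replicate 1, 2 or 3. It was also lost with median scaling (adjusted p = 0.261) and without the dimmest 25% of rows (adjusted p = 0.105).

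**Figure D2:**
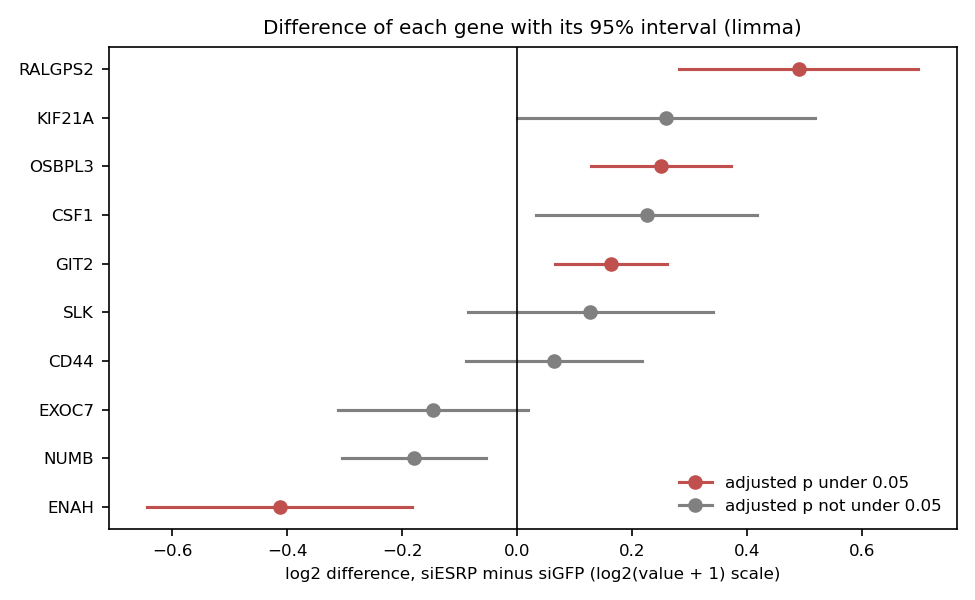
Log2 difference of each of the 10 genes, siESRP minus siGFP on the log2(value + 1) scale, as a point with its 95% interval from limma (n = 4 arrays per group), in order of the difference. RALGPS2, OSBPL3 and GIT2 in colour lie above 0 and ENAH below 0, while the intervals of NUMB and CSF1 leave out 0 although their adjusted p-values did not pass.

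These 4 calls depended on putting the arrays on a common scale. On the deposited values ENAH was 1477, 1088, 1325 and 1505 in siESRP cells and 2161, 1564, 2154 and 1460 in siGFP cells, so that siGFP replicate 4, the array with the lowest median, fell among the siESRP arrays. RALGPS2 was 903, 705, 730 and 949 in siESRP cells, against 712, 514, 666 and 472 in siGFP cells, with siGFP replicate 1 above siESRP replicate 2. Without between-array scaling 0 of the 10 genes had groups that did not overlap, against 15.9% of all rows. After quantile normalization this held for 7 of the 10 genes and for 24.7% of all rows. Of the 12077 rows with a group mean of 100 or more and no value at or below 0, it held for 4146. The log2 differences on the deposited scale, -0.43 for ENAH, 0.48 for RALGPS2, 0.24 for OSBPL3 and 0.15 for GIT2, were close to those after normalization, and the limma adjusted p-values were 0.186, 0.133, 0.329 and 0.391.

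NUMB and CSF1, like EXOC7 below, had separate groups without passing the adjusted test. NUMB encodes an endocytic adaptor that restrains Notch signalling and marks one daughter in asymmetric divisions. Its intensities were 1913, 1985, 1882.5 and 2002 in siESRP cells and 2389.8, 2163, 2196 and 2075 in siGFP cells, every siESRP value being lower (log2 difference -0.18 ± 0.05 SE, limma adjusted p = 0.0561). CSF1 encodes the macrophage growth factor, whose alternative exon carries the site for release from the cell surface. CSF1 measured 564, 523, 539 and 527 in siESRP cells and 498, 419, 513 and 419 in siGFP cells (log2 difference 0.23 ± 0.08 SE, limma adjusted p = 0.0997). Here siGFP replicates 1 and 3 came close to the siESRP arrays and the other two siGFP arrays were clearly lower.

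EXOC7 and KIF21A were less certain still. EXOC7 encodes an exocyst subunit that tethers secretory vesicles to the plasma membrane through its lipid-binding end. It measured 404, 402, 338 and 415 in siESRP cells, against 439.8, 423, 426 and 430.25 in siGFP cells (log2 difference -0.15 ± 0.07 SE, limma adjusted p = 0.203). Every siESRP value of EXOC7 lay below every siGFP value. The siGFP values were tight and siESRP replicate 3 was far below its group. KIF21A encodes a kinesin that restrains microtubule growth at the cell cortex. Its intensities were 301, 296, 233 and 286 in siESRP cells and 198, 249.6, 239 and 245 in siGFP cells (log2 difference 0.26 ± 0.11 SE, 95% interval -0.00082 to 0.52, limma adjusted p = 0.154). siESRP replicate 3 was inside the siGFP range, and without it the log2 difference was 0.35 (limma adjusted p = 0.0454).

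For SLK and CD44 the groups overlapped. SLK encodes a kinase that phosphorylates ezrin-family proteins and takes part in adhesion turnover. Its intensities were 1446, 1540.1, 1323 and 1379 in siESRP cells and 1143, 1412, 1229.8 and 1437 in siGFP cells (log2 difference 0.13 ± 0.09 SE, limma adjusted p = 0.392). The 95% interval ran from a 1.06-fold decrease to a 1.27-fold increase, and without siGFP replicate 1 the log2 difference was 0.065. CD44, the hyaluronan receptor whose variable exons are a classic ESRP-controlled cassette, measured 5061, 5389.8, 4800.1 and 5130.4 in siESRP cells and 4495, 5182, 4674 and 5174 in siGFP cells (log2 difference 0.06 ± 0.06 SE, limma adjusted p = 0.560). Its 95% interval ran from a 1.06-fold decrease to a 1.16-fold increase. The log2 difference was 0.03 without siGFP replicate 1, 0.04 without siESRP replicate 2, 0.10 with median scaling and 0.12 without scaling, and it did not pass in any of these.

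**Figure D3:**
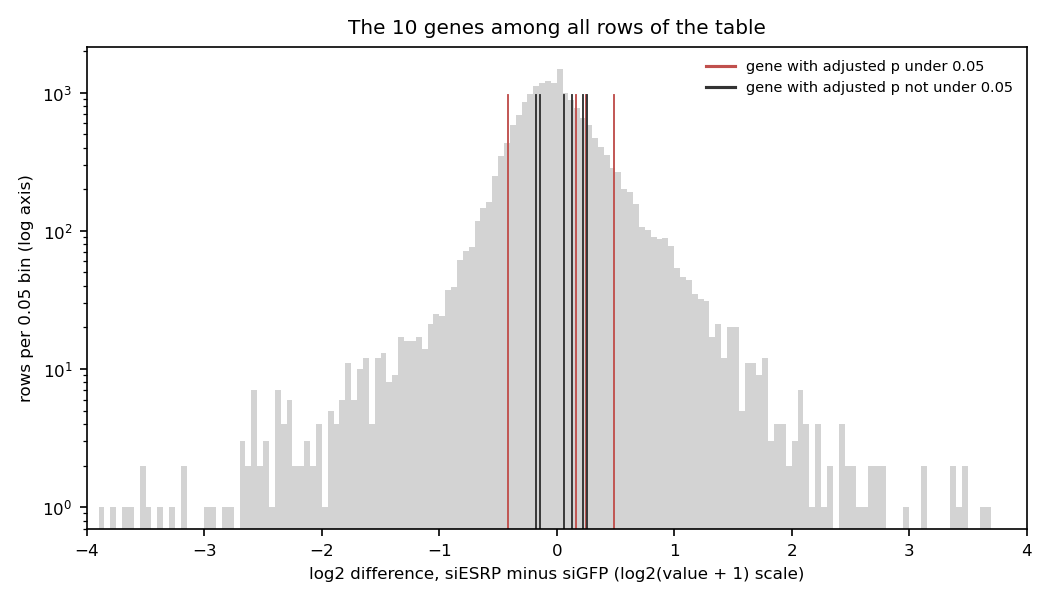
Histogram of the log2 difference, siESRP minus siGFP on the log2(value + 1) scale, over all 18495 rows (grey, logarithmic count axis), with a vertical line for each of the 10 genes. All 10 lines lie between -0.41 and 0.49, and the distribution extends from -3.85 to 3.66.

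Among control arrays most of the 10 genes divided the replicates the same way, though not in the same direction. In siGFP, replicates 1 and 3 were both above replicates 2 and 4 for ENAH, RALGPS2, NUMB and CSF1, and both below them for GIT2, SLK, KIF21A and CD44. That is 8 of the 10 genes, against 45.1% of all rows and 51.1% of the brighter rows described above, and the order was noticed after the values were seen. Median deposited intensity was 286 and 264 in siGFP replicates 1 and 3 and 254 and 233 in siGFP replicates 2 and 4. The part of array brightness in this order was not tested.

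Of 12 other measured genes described as ESRP splicing targets, FGFR2, ITGA6 and ESYT2 rose, GRHL1 fell and 8 did not pass, with a median log2 difference of 0.09. That is 33.3% called, against 20.2% of all rows and 28.4% of the brighter rows. FGFR2, the fibroblast growth factor receptor whose mutually exclusive exons the ESRPs select, averaged 184 ± 19.4 in siESRP and 131 ± 8.92 in siGFP cells (log2 difference 0.49, limma adjusted p = 0.00885). ITGA6, a laminin-binding integrin chain, averaged 2854 ± 54.3 in siESRP and 2193 ± 186 in siGFP cells (log2 difference 0.38, limma adjusted p = 0.00690). GRHL1, an epithelial transcription factor, averaged 222.5 ± 8.43 in siESRP and 266 ± 12.7 in siGFP cells (log2 difference -0.26, limma adjusted p = 0.0121).

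Of 12 measured genes that work beside ENAH in actin assembly, DIAPH1, DIAPH3, VASP and ZYX fell and PFN2 rose, with a median log2 difference of -0.13. Together 41.7% were called, against 20.2% of all rows and 28.4% of the brighter rows. VASP, the family relative of ENAH, averaged 418 ± 36.2 in siESRP and 559 ± 30.6 in siGFP cells, a 1.34-fold decrease close in size to that of ENAH (limma adjusted p = 0.00762). The formin DIAPH1, which nucleates and elongates unbranched actin filaments, averaged 1198 ± 83.1 in siESRP and 2093 ± 159 in siGFP cells, a 1.75-fold decrease (limma adjusted p = 0.000658). DIAPH3, a formin of the same family, fell 1.39-fold (limma adjusted p = 0.00373). EVL, the other relative of ENAH, had means of 66.1 in siESRP and 43.7 in siGFP cells (limma adjusted p = 0.0605).

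Of 14 measured relatives and partners of OSBPL3, 6 rose and 0 fell, with 1 lower at an unadjusted limma p under 0.05 and a median log2 difference of 0.22. Calls made up 42.9% of this list, against 20.2% of all rows and 28.4% of the brighter rows. OSBP2 averaged 789 ± 73.9 in siESRP and 398 ± 66.4 in siGFP cells, a 1.99-fold increase (limma adjusted p = 0.00271). OSBPL6, which belongs to the same subfamily as OSBPL3, averaged 377 ± 36.7 in siESRP and 197 ± 36.3 in siGFP cells (limma adjusted p = 0.00375). OSBPL5, a lipid transfer protein of the same kind, averaged 175 ± 3.09 in siESRP and 106 ± 8.81 in siGFP cells (limma adjusted p = 0.000594). OSBPL1A and OSBPL10 rose too, as did VAPA, the endoplasmic reticulum anchor to which these proteins bind, while OSBP itself had a log2 difference of -0.23 (limma adjusted p = 0.135).

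Of 14 measured exocyst and Ral genes, the setting of EXOC7 and RALGPS2, EXOC4 and RALGDS rose and EXOC5 fell. The share that passed was 21.4%, against 20.2% of all rows and 28.4% of the brighter rows. The median log2 difference was 0.22, with 12 genes above 0 and 2 below. EXOC4, an exocyst subunit, averaged 837 ± 25.7 in siESRP and 636 ± 42.3 in siGFP cells (log2 difference 0.40, limma adjusted p = 0.00363), while EXOC5, another subunit, averaged 1777 ± 121 in siESRP and 2317 ± 125 in siGFP cells (log2 difference -0.38, limma adjusted p = 0.00694). RALGDS, a Ral exchange factor like RALGPS2, rose 1.32-fold (limma adjusted p = 0.00780), and RALGPS1, the direct relative of RALGPS2, had a log2 difference of 0.45 that did not pass (limma adjusted p = 0.0985).

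Of 10 Notch pathway and NUMB-related genes, 4 rose and 0 fell, also at an unadjusted limma p under 0.05. The share called was 40%, against 20.2% of all rows and 28.4% of the brighter rows. The receptor NOTCH3 averaged 202 ± 19.5 in siESRP and 116 ± 7.48 in siGFP cells (limma adjusted p = 0.00100). HES1, a transcriptional repressor induced by Notch, averaged 458 ± 32.9 in siESRP and 266 ± 27.9 in siGFP cells (limma adjusted p = 0.00157). NOTCH1 and the NUMB-binding ubiquitin ligase LNX2 also rose, and NUMBL, the relative of NUMB, had a log2 difference of 0.14 (limma adjusted p = 0.393).

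The lists around GIT2, SLK and KIF21A had 2 of 10, 2 of 8 and 2 of 9 genes called, shares near the 20.2% of all rows. None reached the 28.4% of the brighter rows described above. Around GIT2, 2 of 10 genes fell and 0 rose, with 1 higher at an unadjusted limma p under 0.05. Those that fell were the GTPases ARF1 and ARF6, with log2 differences of -0.27 each (limma adjusted p = 0.00791 and 0.0300), and GIT1 was at -0.13 (limma adjusted p = 0.106). Among 8 genes linked to SLK, the adaptor LDB1 rose 1.34-fold and the mitotic kinase PLK1 fell 1.31-fold, while EZR, a SLK substrate, had a log2 difference of -0.01. Among 9 genes of cortical microtubule anchoring, the KIF21A-binding scaffold KANK1 fell 1.17-fold (limma adjusted p = 0.0103) and PPFIBP1, a liprin, rose 1.54-fold (limma adjusted p = 0.0140). KIF21B, the relative of KIF21A, was near background at 3.09 in siESRP and 4.0 in siGFP cells.

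Of 9 hyaluronan genes set beside CD44, HYAL2, a hyaluronan-degrading enzyme, rose 1.28-fold (limma adjusted p = 0.0326), CEMIP averaged 56.3 in siESRP and 25.1 in siGFP cells (limma adjusted p = 0.0119), and 0 fell, also at an unadjusted p under 0.05. Both means of 4 of these 9 genes were under 50, and 22.2% were called, against 20.2% of all rows. Of 8 genes set beside CSF1, 1 rose and 1 fell, so that 25% were called, against 20.2% of all rows and 28.4% of the brighter rows. LIF, a cytokine of the interleukin-6 family, averaged 1133 ± 153 in siESRP and 780.2 ± 75.0 in siGFP cells (limma adjusted p = 0.0181). CSF1R, the receptor for CSF1, averaged 80.9 ± 7.22 in siESRP and 154 ± 23.6 in siGFP cells, a 1.88-fold decrease (limma adjusted p = 0.00323). Of the 24 genes named by rule from the lists, 6 lost their call under 3 or more of the 15 alternatives: ARF6 under 9, LNX2 and HYAL2 under 8 each, KANK1 under 4, and ARF1 and LIF under 3 each. Without scaling the limma adjusted p was 0.283 for KANK1, 0.337 for ARF1 and 0.116 for LIF. The lists were set out with earlier results on these arrays known, so their counts describe them and are no independent evidence of a direction.

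**Figure D4:**
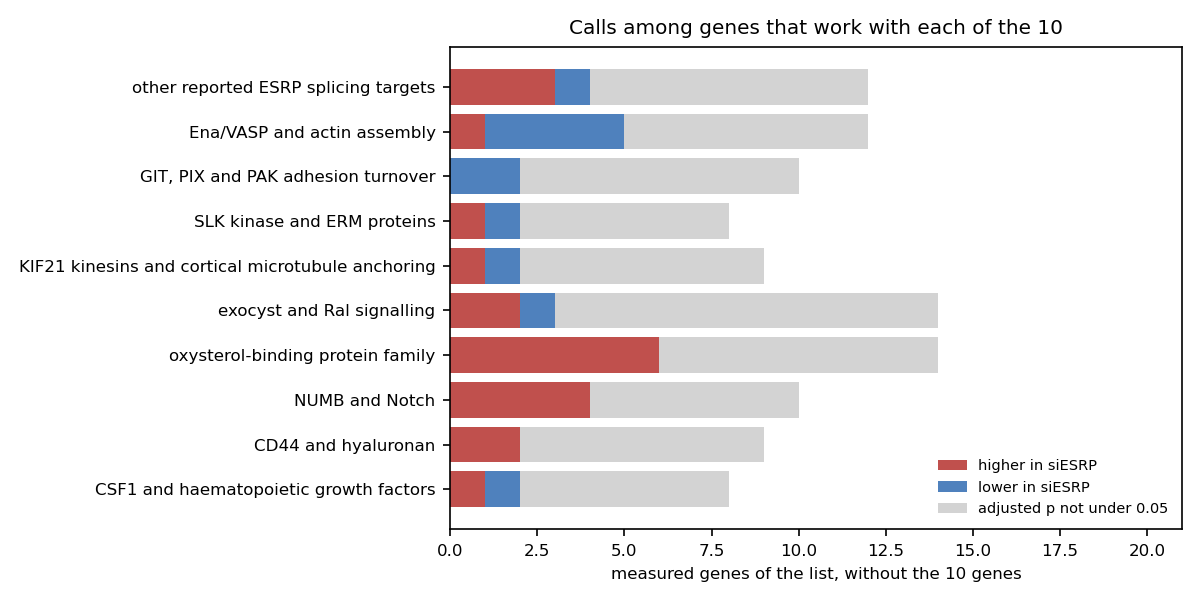
Number of measured genes in each of 10 lists, not counting the 10 genes themselves, that were higher in siESRP, lower in siESRP or did not pass (limma adjusted p under 0.05, n = 4 arrays per group). The oxysterol-binding protein list shows 6 higher and 0 lower, and the actin assembly list 1 higher and 4 lower.

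The rows most like each of the 4 genes that passed were sought among 10128 other rows that name 1 gene and have all values above 50, by the root-mean-square distance over the 8 arrays between log2 values centred on the siGFP mean. KIF2C, LYAR and EXO1 were nearest to ENAH, at distances of 0.041, 0.050 and 0.051. CMTM6, PLS1 and FHL2 were nearest to RALGPS2, at 0.049, 0.049 and 0.064. PDIA5, TARBP1 and CDCP1 were nearest to OSBPL3, at 0.035, 0.035 and 0.036, and GDE1, STAM and RAP1GAP2 to GIT2, at 0.036, 0.038 and 0.042. KIF2C, for one, averaged 1362 ± 106 in siESRP and 1845 ± 157 in siGFP cells, a log2 difference of -0.44 against -0.41 for ENAH.

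**Figure D5:**
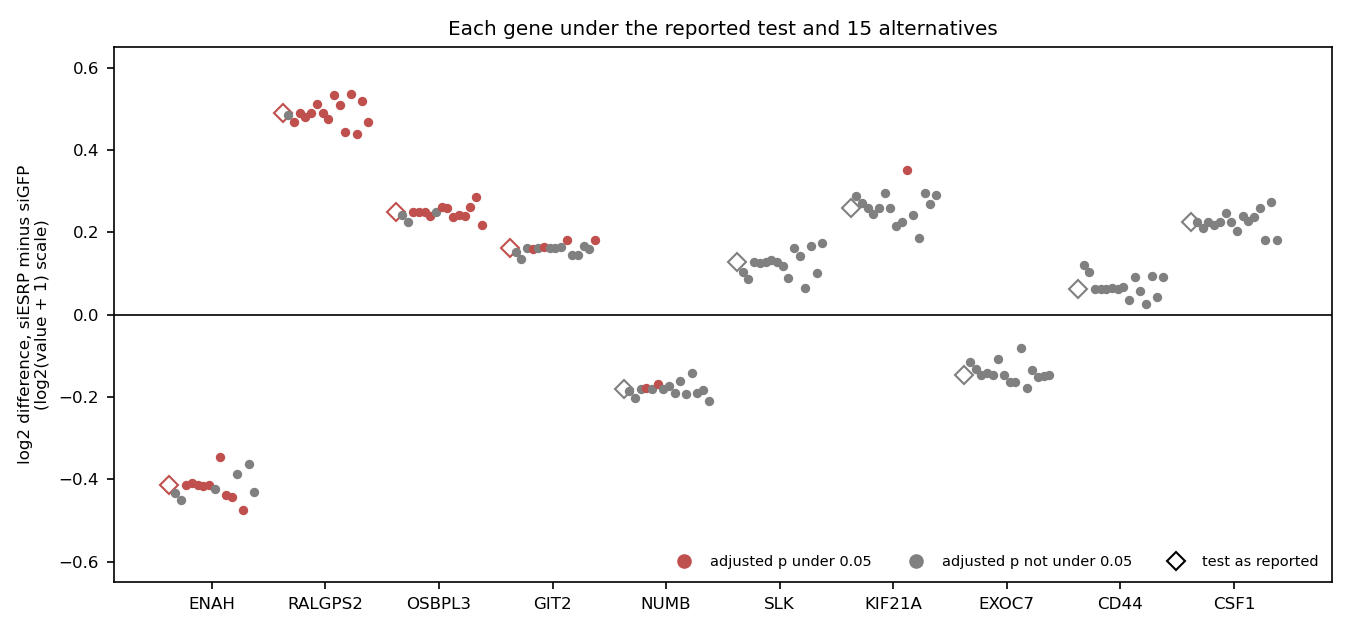
Log2 difference, siESRP minus siGFP on the log2(value + 1) scale, of each of the 10 genes under the test as reported (open diamond) and 15 alternatives (points), coloured where the adjusted p was under 0.05. No gene changed direction under any of them, while coloured points gave way to grey in 11 of 15 alternatives for GIT2, 6 for ENAH, 3 for OSBPL3 and 1 for RALGPS2.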

How the data were processed

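RNA from 4 siESRP and 4 siGFP samples was measured on Affymetrix human exon arrays, with biotinylated sense-strand DNA made after ribosomal RNA reduction, per the labels' protocols. The authors deposited 1 table of linear intensity values, 1 row per gene-level transcript cluster. How background was corrected, probes summarized and arrays scaled is not given in the sources used here, and between 2.70% and 4.02% of values per array lie below 0. Groups and replicate numbers came from the sample titles. The labels do not tie samples to separate cultures, so each p-value reflects only how these samples scatter, which may be technical. The number of arrays limits the precision.

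Linear values were quantile normalized between arrays and raised to 0 where negative, and log2(value + 1) was tested with limma 3.58.1 (lmFit and eBayes, R 4.3.3) over all 18495 rows, two-sided, with Benjamini-Hochberg adjustment and a threshold of 0.05. Intervals are unadjusted limma intervals, and means ± SD are normalized intensities. The steps were tested on simulated data, where 55 of 100 rows changed 1.5-fold and 83 of 100 rows changed 2-fold were recovered. Changes smaller than 1.5-fold, the size seen in all 10 genes, were not simulated. Platform annotation, updated through Entrez IDs to RefSeq (GRCh38.p14), named 1 gene for 14579 rows, several for 2847 and none for 1069, and a gene with several rows is given by its brightest.

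The 10 genes and all lists were chosen with earlier results of these data known. Besides the 10 genes and the siRNA targets, the text names up to 3 genes per list with the smallest p among those that passed at a group mean of at least 100, and the 3 rows most like each of the 10 genes that passed. Other list members are named to complete a count or as relatives of the 10 genes and were picked with their values in view. Alternatives were no scaling, median scaling, a pseudocount of 16, dropping the dimmest 25% of rows, array weights, trended robust eBayes, blocking on the replicate number, stricter thresholds and leaving out each array.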

Additional observations from a re-analysis of the deposited data

Results flagged for a closer look

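EXOC7 in siESRP cells had 1 array apart from the other 3: replicate 3, at 338 against 402 to 415, a gap of 0.840 of the group's range, above Dixon's 95% critical value for 4 samples. Chance flags about 1 in 20 groups, or 1.2 of the 24 groups tested here (the 10 genes, ESRP1 and the ESRP2 row in both conditions), and 1 was flagged. Without that array the log2 difference of EXOC7 was -0.08 (limma adjusted p = 0.180), against -0.15 with it (limma adjusted p = 0.203).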

How the results depend on the processing

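All 10 genes kept the sign of their difference under the 15 alternatives that refit the test, with 7 positive each time. The median log2 difference of all rows was -0.02 as reported, -0.10 without scaling and -0.11 with median scaling. Rows called numbered 3729, and 1673 without scaling, 2292 with the replicate block, 1808 at an adjusted p under 0.01 and 1309 with at least 1.5-fold. Leaving out 1 array gave 2719 to 3793. Of the 10 genes, 3 were called higher and 1 lower. Without scaling both counts were 0 (2 and 1 at an unadjusted limma p under 0.05). With median scaling 1 was higher and 0 lower (3 and 1 unadjusted), with the replicate block 1 and 1, at an adjusted p under 0.01 it was 1 and 0, and with at least 1.5-fold 0 and 0 (4 and 2 unadjusted, any size). A pseudocount of 16 and array weights each gave 2 lower, adding NUMB (adjusted p = 0.0491 and 0.0471). Leaving out 1 array gave 2 to 4 higher and 0 to 1 lower. The replicate block ended the calls of OSBPL3 (adjusted p = 0.0642) and GIT2 (0.0948). Only 1 of 4 same-numbered pairs had deviations from the group mean correlated above 0.1 (-0.27 to 0.15), so the numbers were not taken as pairs. The causes were not tested. GIT2, at 1.12-fold, was the smallest difference called among the 10 genes with 4 arrays per group.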

Other observations

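Rows shared by several genes were kept out of the comparison, and 3 of them include one of the 10. The row annotated to TCHP and GIT2 together measured 249, 264, 323 and 274 in siESRP cells and 363, 527, 382 and 479 in siGFP cells, a 1.56-fold decrease (log2 difference -0.65 ± 0.14 SE, limma adjusted p = 0.0196), whereas the row of GIT2 alone rose 1.12-fold. Which of the genes gave the signal of the shared row cannot be told apart. The row annotated to ENAH with DNAH14, SRP9 and LBR averaged 2842 ± 248 in siESRP and 2775 ± 278 in siGFP cells (log2 difference 0.04 ± 0.09 SE, limma adjusted p = 0.845), whereas the row of ENAH alone fell. The row annotated to EXOC7 and ZACN averaged 111 ± 25.04 in siESRP and 133 ± 26.3 in siGFP cells (log2 difference -0.27 ± 0.19 SE, limma adjusted p = 0.397).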
